A study of Mus musculus with 15 samples.

Results

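The matrix metalloproteinases (MMPs) and the tissue inhibitors of metalloproteinases (TIMPs) were followed in the lungs of mice given silica, DMSO or both. The 10 genes were chosen by name: the 7 MMP genes Mmp12, Mmp13, Mmp19, Mmp14, Mmp2, Mmp8 and Mmp9, and the 3 inhibitor genes Timp1, Timp2 and Timp3. Each name matched 1 of the 57010 genes in the deposited tables, and all 10 passed the filter on low counts, as did 17630 genes in all. The genes were listed with earlier results of silica against control known, so that comparison is given as a description, with fold differences and standard errors (SE) and no p-value, and nothing is read from its counts of calls.

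MMPs are zinc-dependent proteases that are made as inactive proforms and, once activated, cut elastin, collagens, gelatin and other matrix proteins. TIMPs bind the active site of the enzymes and block it. In the lung, MMPs of macrophages, neutrophils and fibroblasts are known for their part in matrix turnover, emphysema and fibrosis. In the deposited domain annotation all 7 MMP genes carry the propeptide-type domain PG_binding_1, the catalytic domain Peptidase_M10 and Hemopexin repeats. Mmp2 and Mmp9, the gelatinases, alone among the 7 also carry the fibronectin type domain fn2.

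The study sequenced 15 RNA libraries of C57BL/J mouse lung. The control group (n = 4, numbered 1, 2, 4 and 7) received physiological saline, and the DMSO group (n = 4, numbered 1, 4, 6 and 7) received dimethyl sulfoxide, a solvent. The silica group (n = 3, numbered 1, 2 and 7) received silica, a mineral dust dripped as a suspension into the nose. The silica_DMSO group (n = 4, numbered 2, 4, 5 and 6) received silica and then DMSO on the second day. Tissue was taken at day 30, and the series asks whether DMSO acts on the response to the dust. The sources used here give neither age nor sex, nor whether libraries come from separate animals, and p-values measure the spread between these libraries.

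Libraries held 17434649 to 20829960 counts. The labels name the tissue as lung, although their extraction notes speak of retinas. In 12 libraries the summed normalised CPM (counts scaled to library size by the TMM method) of alveolar type 2 cell markers was 20739 to 61916 and that of 8 thymocyte markers 16.2 to 36.7. DMSO 7, silica_DMSO 4 and silica_DMSO 6 went against their label: type 2 markers summed to 183 to 6518 and thymocyte markers to 4781 to 6187. Rag2, a defining thymocyte gene, was at 0 in all 12 of the former. These 3 libraries are called thymus-like, their values are printed apart, and tests use the 12 lung libraries unless stated. The lung libraries also differed in the share of counts in genes longer than 3000 bases. The share was 11.5% to 24.2% in control 1, DMSO 1, DMSO 4, silica 7 and silica_DMSO 5, and 34.0% to 44.9% in the other 7. Because these are bulk samples, fewer cells of a type and less RNA per cell cannot be told apart.

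Promoter sequence was read from RefSeq on GRCm38.p6 as the 250 bases before each annotated start. 7 of the 10 genes matched, with 8 windows because Mmp12 has 2 starts, and Mmp2, Mmp9 and Mmp19 did not match. The AP-1 motif TGANTCA, which is bound by Fos and Jun proteins and reads the same on both strands, was found in 2 of the 8 windows. It lay in the window of Mmp13 and that of the second start of Mmp12, and was absent from that of the first start of Mmp12. The 2 windows with the motif are shown with Mmp8, a gene of the same MMP cluster without it. Capitals mark the AP-1 motif and, in Mmp13, the TATA motif TATAAA (searched on both strands).
Mmp12, second start, chr9:7347124-7347373, plus strand: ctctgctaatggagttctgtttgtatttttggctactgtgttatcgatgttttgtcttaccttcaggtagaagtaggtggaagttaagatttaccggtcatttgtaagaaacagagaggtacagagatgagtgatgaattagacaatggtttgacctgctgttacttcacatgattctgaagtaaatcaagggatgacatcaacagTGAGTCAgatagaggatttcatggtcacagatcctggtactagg
Mmp13, chr9:7272264-7272513, plus strand: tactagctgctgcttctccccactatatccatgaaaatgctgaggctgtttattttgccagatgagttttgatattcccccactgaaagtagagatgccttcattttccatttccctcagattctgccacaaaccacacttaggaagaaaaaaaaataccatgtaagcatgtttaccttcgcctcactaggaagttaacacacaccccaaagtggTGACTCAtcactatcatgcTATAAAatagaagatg
Mmp8, chr9:7558179-7558428, plus strand: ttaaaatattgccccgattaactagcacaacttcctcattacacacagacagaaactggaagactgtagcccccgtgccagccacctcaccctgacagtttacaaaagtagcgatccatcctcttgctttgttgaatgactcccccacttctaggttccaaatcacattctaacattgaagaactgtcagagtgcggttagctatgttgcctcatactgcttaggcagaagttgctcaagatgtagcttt
In Mmp12 the AP-1 match TGAGTCA began 44 bases before the start. In Mmp13 TGACTCA began 35 bases before the start and TATAAA 16 bases before it. Of 32851 RefSeq windows of this length, 6.75% hold TGANTCA, 12.4% hold TATAAA and 1.21% hold both. A match is a run of letters and was not tested as a binding site.

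Mmp12, Mmp13 and Mmp8 belong to an uninterrupted run of 10 MMP genes on chromosome 9, in the order Mmp13, Mmp12, Mmp1b, Mmp3, Mmp1a, Mmp10, Mmp8, Mmp27, Mmp20 and Mmp7. Of the 10, 5 had enough counts to be fitted. On the log2 scale the silica minus control difference was 2.46 for Mmp13 and 4.80 for its neighbour Mmp12, against 0.15 for Mmp3 (stromelysin 1), 1.51 for Mmp8 and -0.92 for Mmp27. The fold difference was therefore uneven along the cluster.

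In control lungs Timp3 and Timp2 were the most abundant of the 10 transcripts. On the TPM scale, which allows for gene length, the control means (n = 4) were 233 ± 113 TPM (SD) for Timp3 and 174 ± 49.5 for Timp2. Mmp2 at 21.0 ± 10.3 and Mmp14 at 17.9 ± 8.54 followed, and their ranges overlapped. Timp1 stood at 10.4 ± 4.36, Mmp9 at 6.38 ± 5.60, Mmp19 at 5.79 ± 2.84 and Mmp12 at 5.72 ± 3.06, again with overlapping ranges. Mmp8 at 1.79 ± 1.60 and Mmp13 at 0.445 ± 0.280 were the lowest. In the silica group (n = 3) Mmp12 had the highest mean, 158 ± 89.4 TPM, beside 126 ± 85.7 for Timp3 and 109 ± 45.4 for Timp2, 3 spreads that overlap.

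Mmp12, the macrophage elastase (ENSMUSG00000049723), was the gene with the largest difference. Its normalised CPM was 5.23, 9.36, 9.18 and 7.35 in control 1, 2, 4 and 7, and 254, 220 and 193 in silica 1, 2 and 7. Every silica library lay far above every control, with means of 222 ± 30.4 (SD, n = 3) and 7.78 ± 1.93 (SD, n = 4). The fitted log2 fold difference was 4.80 ± 0.42 (SE), or 27.9-fold. Of the 10 genes, 1 (Mmp12) was called in silica against control at an adjusted p under 0.05, where 0.0113% of all genes were called. Its log2 fold difference was 4.55 to 4.90 over 22 alternatives, of which 18 kept the call. The call was absent, among others, when the 3 thymus-like libraries were put back (0% of genes called) and when log2(TPM + 1) or log2(TPM + 0.1) was tested with limma (0.0113% and 0.0170%). Of the 10 genes, DESeq2's test called 3 where it called 0.846% of all genes, limma-voom 6 (7.57%), edgeR with the long-gene share as a covariate 2 (0.272%) and edgeR without a filter on low counts 2 (0.0688%).

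**Figure D1:**
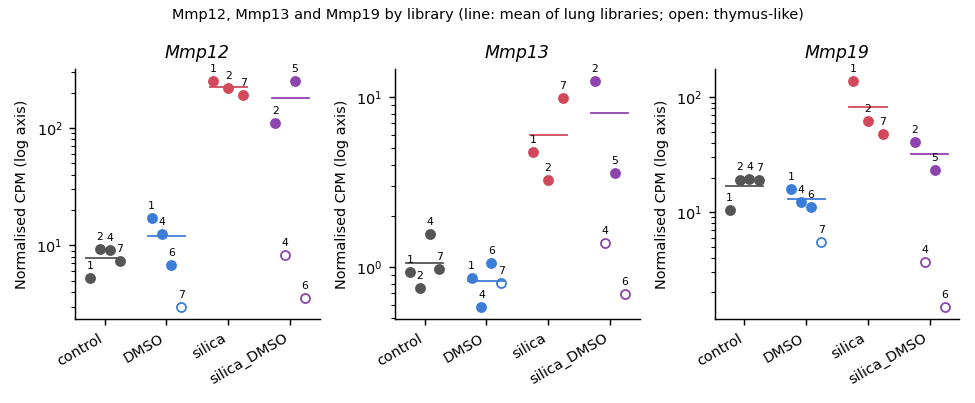
Normalised CPM (log axis) of Mmp12, Mmp13 and Mmp19 in each of the 15 libraries by group, with replicate numbers; lines are means of lung libraries and open points the 3 thymus-like libraries. In every panel the filled silica points lie above the filled control points, a pattern of 5.83% of all genes. The filled silica_DMSO points lie above the filled DMSO points, a pattern of 4.99%. Mmp12 lies at 110 to 254 in the 5 silica-given lungs and at 5.23 to 16.9 in the 7 others.

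Mmp12 was also high in the silica-given lungs that had received DMSO. It measured 16.9, 12.4 and 6.81 normalised CPM in DMSO 1, 4 and 6 and 110 and 253 in silica_DMSO 2 and 5, with no overlap. None of these 5 libraries belongs to the silica or control group, although the fit estimates the spread of a gene over all 12. The genes were chosen with earlier results of these data known, so this comparison may not be free of that choice. The log2 fold difference of silica_DMSO against DMSO was 3.90 ± 0.47 (SE; 2 and 3 libraries), a 14.9-fold difference with an adjusted p of 0.0663 by edgeR's quasi-likelihood test, which missed the threshold. No gene passed in this comparison (0% of 17630). With the long-gene share as a covariate Mmp12 passed at 3.88 ± 0.41 (adjusted p = 0.0189), the only gene called (0.00567%), and so it did without a filter on low counts (0.00327% of genes). DESeq2's test called Mmp12 and Mmp13 where it called 0.0571% of genes.

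Mmp13 (collagenase 3, ENSMUSG00000050578) had the lowest mean of the 10 genes in control lungs. Controls held 0.940, 0.756, 1.56 and 0.970 normalised CPM, which rest on 16 to 35 counts per library, and silica 1, 2 and 7 held 4.74, 3.24 and 9.92. The groups did not overlap, and the log2 fold difference was 2.46 ± 0.53 (SE). DMSO 1, 4 and 6 held 0.867, 0.581 and 1.05 normalised CPM and silica_DMSO 2 and 5 held 12.5 and 3.56, again apart. That difference was 3.24 ± 0.65 on the log2 scale, with an unadjusted p of 0.000358 in edgeR's test and an adjusted p of 1.00.

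Mmp19 (ENSMUSG00000025355), an MMP that cuts basement membrane proteins, was also higher in the lungs given silica. Controls stood at 10.5, 19.2, 19.3 and 19.0 normalised CPM and silica 1, 2 and 7 at 139, 62.0 and 47.7. The lowest silica library exceeded the highest control, and the log2 fold difference was 2.25 ± 0.39 (SE). DMSO 1, 4 and 6 stood at 15.9, 12.4 and 11.2 and silica_DMSO 2 and 5 at 40.9 and 23.5. That difference, 1.28 ± 0.46, did not pass (edgeR, unadjusted p = 0.0173, adjusted p = 1.00), although the groups did not overlap. Without silica_DMSO 2, which leaves 1 library in that group with a spread assumed like that of the others, it was 0.80, and the difference of Mmp13 was 2.03.

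Mmp12, Mmp13 and Mmp19 were thus the 3 members without overlap and higher in silica than control, a pattern of 5.83% of all genes, and likewise in silica_DMSO against DMSO, a pattern of 4.99%. The same 3 had an unadjusted p under 0.05 in silica_DMSO against DMSO, where 1.90% of genes did. Of the 12 macrophage marker genes, all detected in every library, the summed normalised CPM was 777 to 970 in controls and 1486 to 1842 in silica, and 684 to 2452 in DMSO and 1261 to 3140 in silica_DMSO lungs. The marker sums were thus higher in silica than in control lungs, by less than Mmp12. Mmp12 expressed as a percentage of that sum was 0.508% to 1.20% in the 7 lungs without silica and 8.06% to 14.97% in the 5 with it. In DMSO 4 the macrophage sum reached 2452, above all 3 libraries of the silica group, with Mmp12 at 12.4. The part of macrophage content in the Mmp12 difference was not tested.

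**Figure D2:**
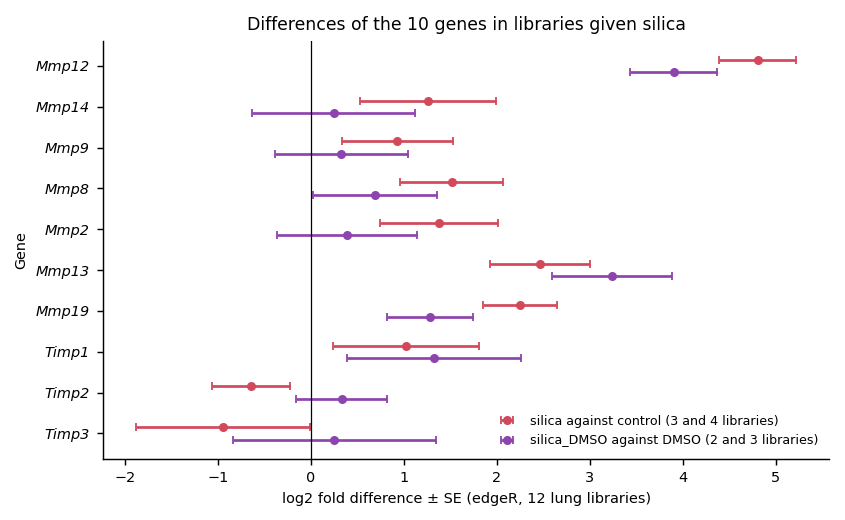
Fitted log2 fold difference ± SE (horizontal axis) of each of the 10 genes (vertical axis) for silica against control and silica_DMSO against DMSO in the 12 lung libraries. Mmp12 (4.80 and 3.90), Mmp13 (2.46 and 3.24) and Mmp19 (2.25 and 1.28) lie more than 2 SE right of 0 in both comparisons, and Timp2 and Timp3 are on opposite sides of 0 in the 2 comparisons.

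Mmp14 and Mmp2 were higher in only some of the silica lungs. Mmp14 (ENSMUSG00000000957) encodes a membrane-anchored MMP that activates pro-MMP2, and Mmp2 (ENSMUSG00000031740) encodes gelatinase A, typical of fibroblasts. Mmp14 measured 49.2, 33.2, 51.9 and 31.1 normalised CPM in controls and 220, 56.2 and 31.5 in silica 1, 2 and 7. Silica 1 stood apart and silica 7 lay within the control range. The log2 fold difference was 1.26 ± 0.73 (SE), and 0.073 without silica 1.

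Mmp2 showed the same order among the silica libraries, though not among the controls. It measured 39.6, 39.3, 60.5 and 60.2 normalised CPM in controls and 248, 97.8 and 55.6 in silica 1, 2 and 7. The log2 fold difference of 1.38 ± 0.63 (SE) was 0.61 without silica 1. The summed fibroblast markers were lower in silica (2195 to 2567) than in control lungs (2790 to 3556), with all 10 markers detected. Within the silica group they stood in the order of Mmp14 and Mmp2, at 2567, 2259 and 2195 in silica 1, 2 and 7. Of the 10 markers, 4 were higher in silica than control (median log2 fold difference -0.37). The part of fibroblast content in these 2 genes was not tested. In the DMSO groups Mmp14 was 26.9, 22.2 and 32.9 in DMSO 1, 4 and 6 and 59.9 and 5.08 in silica_DMSO 2 and 5, so the silica_DMSO lungs fell on either side. Mmp2 was 52.3, 45.6 and 39.6 against 109 and 11.7 in the same libraries. Silica_DMSO 5, low in both, had the smallest share of counts in long genes (11.5%). DMSO 4, with a share of 12.4%, held 22.2 of Mmp14 and 45.6 of Mmp2. The log2 fold differences of 0.24 ± 0.88 (Mmp14) and 0.39 ± 0.75 (Mmp2) had an adjusted p of 1.00 and became -2.47 and -2.01 without silica_DMSO 2. With the long-gene share as a covariate they were -0.58 and -0.44.

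**Figure D3:**
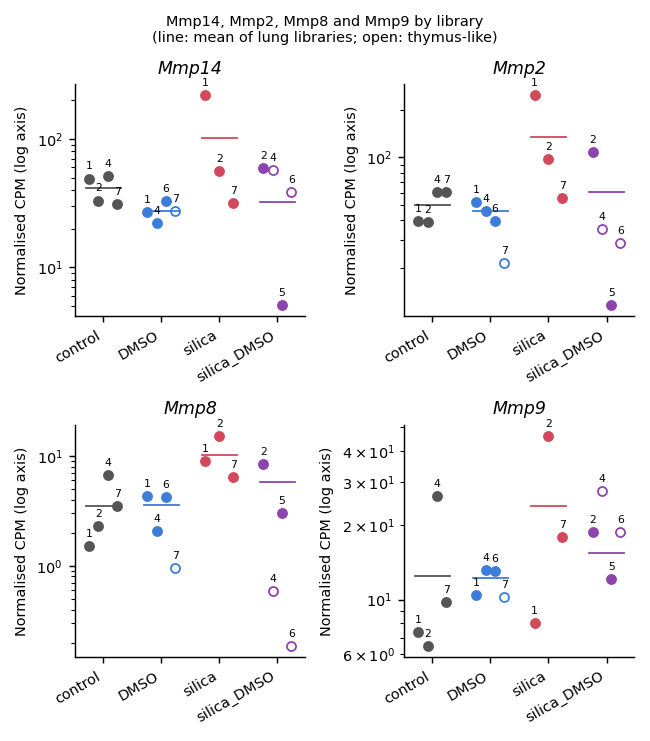
Normalised CPM (log axis) of Mmp14, Mmp2, Mmp8 and Mmp9 by group and library, with lines for means of lung libraries and open points for thymus-like libraries. Silica 1 is highest for Mmp14 (220) and Mmp2 (248), silica 2 for Mmp8 (15.2) and Mmp9 (46.1), and silica_DMSO 5 is lowest for Mmp14 (5.08) and Mmp2 (11.7).

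Mmp8 and Mmp9, the collagenase and the gelatinase stored by neutrophils, were highest in silica 2 instead. Mmp8 (ENSMUSG00000005800) measured 1.53, 2.32, 6.73 and 3.47 normalised CPM in controls and 9.05, 15.2 and 6.44 in silica 1, 2 and 7. Only silica 7 lay below the highest control, and the log2 fold difference was 1.51 ± 0.56 (SE). Mmp9 (ENSMUSG00000017737) measured 7.40, 6.48, 26.2 and 9.80 in controls and 8.07, 46.1 and 17.9 in silica lungs, ranges that overlap widely, with a difference of 0.93 ± 0.60 that was 0.029 without silica 2 and 1.59 without control 4. The summed neutrophil markers were 60.4, 754 and 469 in silica 1, 2 and 7 against 85.7 to 182 in controls, so silica 2 was highest there too. Of the 9 neutrophil markers, 7 to 9 were detected in each lung library, with Mpo at 0 in 5 of the 12, and the part of neutrophil content in these 2 genes was not tested. DMSO 4 had a neutrophil sum of 1160, with Mmp8 at 2.07 and Mmp9 at 13.2.

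Neither gene separated the DMSO groups. Mmp8 measured 4.34, 2.07 and 4.21 in DMSO 1, 4 and 6 and 8.44 and 3.05 in silica_DMSO 2 and 5. Mmp9 measured 10.4, 13.2 and 13.0 against 18.8 and 12.1. Differences of 0.69 ± 0.66 and 0.33 ± 0.72 on the log2 scale had an adjusted p of 1.00 in edgeR's test, and were -0.26 and -0.051 without silica_DMSO 2.

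The inhibitors behaved unlike one another. Timp1 (ENSMUSG00000001131), the inducible TIMP, measured 16.7, 2.88, 3.74 and 7.07 normalised CPM in controls and 7.08, 15.4 and 24.4 in silica 1, 2 and 7. The ranges overlapped because of control 1. The log2 fold difference was 1.02 ± 0.79 (SE), and it was 1.75 without control 1 and 0.54 without silica 7. DMSO 1, 4 and 6 held 4.45, 19.3 and 3.75 and silica_DMSO 2 and 5 held 8.13 and 38.0, which also overlapped, with a difference of 1.33 ± 0.93 (edgeR, adjusted p = 1.00). That difference was -0.15 without silica_DMSO 5. On the TPM scale the silica libraries (16.4 to 25.9) lay above the controls (5.33 to 15.4), narrowly at the nearest values. The share of all genes in that order was not counted on this scale, so nothing is read from it.

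Timp1 was also compared among lungs of a similar long-gene share. Timp1 is the shortest of the 10 genes (833 bases in the deposited table). In the 5 lungs poor in long genes it was 24.4 and 38.0 normalised CPM with silica and 4.45 to 19.3 without. In the 7 lungs rich in long genes it was 7.08 to 15.4 with silica and 2.88 to 7.07 without, values that almost touch. This split was chosen after seeing the data and has no test. Silica-given libraries stood above all others in both parts for Mmp12, Mmp13, Mmp19 and, by only 7.08 against 7.07 in the rich part, Timp1. Among all genes 4.02% did so in the poor part and 7.52% in the rich part, and the share in both was not counted. Mmp14, Mmp2 and Mmp8 did so in the rich part alone. With the long-gene share as a covariate the Timp1 difference was 0.87 ± 0.31 for silica against control and 1.46 ± 0.38 (adjusted p = 0.670) for silica_DMSO against DMSO.

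**Figure D4:**
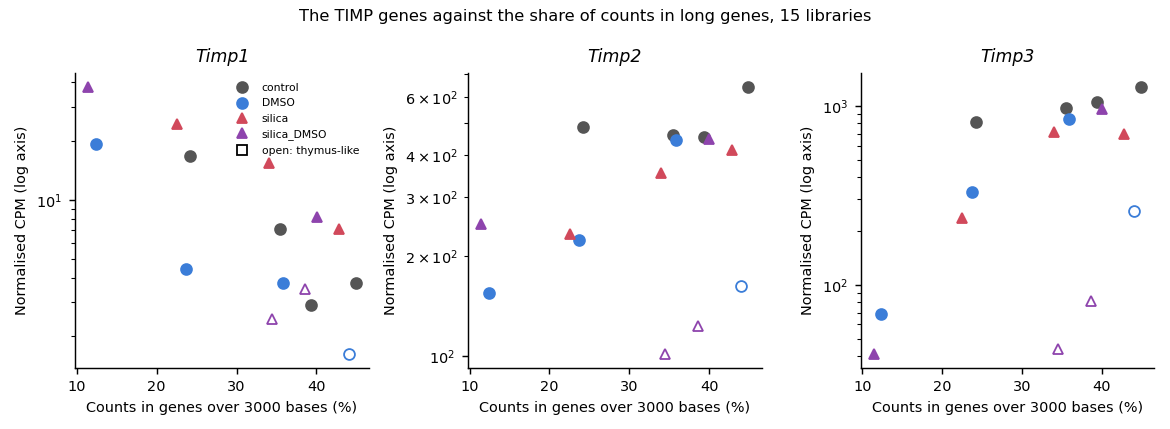
Normalised CPM (log axis) of Timp1, Timp2 and Timp3 against the percentage of a library's counts in genes over 3000 bases, for 15 libraries; circles are control and DMSO, triangles silica and silica_DMSO, open symbols thymus-like. Timp1 is highest (38.0) and Timp3 lowest (41.0) in silica_DMSO 5, the library with the smallest share (11.5%).

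Timp2 and Timp3, the constitutive inhibitors, were lower in silica than in control lungs. Timp2 (ENSMUSG00000017466) also takes part in the activation of pro-MMP2 by MMP14. It measured 487, 453, 644 and 460 normalised CPM in controls and 416, 354 and 233 in silica 1, 2 and 7, without overlap, and the log2 fold difference was -0.65 ± 0.42 (SE). Timp3 (ENSMUSG00000020044), the TIMP held in the matrix, measured 814, 1049, 1281 and 974 in controls and 693, 712 and 236 in silica lungs, also without overlap, with a difference of -0.94 ± 0.94, or -0.59 without silica 7. Of all genes, 4.78% lay wholly lower in silica than in control. Summed markers of other lung cells did so too: endothelium (8 of 8 markers detected) at 1264 to 2084 against 2369 to 3617 normalised CPM, and alveolar type 1 cells (6 of 6) at 1872 to 2817 against 3145 to 5832. Mesothelium markers summed to 4.90 to 49.4 against 74.7 to 218, with 3 of 5 detected in silica 2, where Wt1 and Bnc1 were at 0. The part of these cells in the Timp2 and Timp3 differences was not tested.

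The DMSO groups did not repeat that order. Timp2 was 223, 154 and 445 in DMSO 1, 4 and 6 and 448 and 249 in silica_DMSO 2 and 5. Timp3 was 330, 68.9 and 843 against 957 and 41.0, a spread of over an order of magnitude inside each group. The log2 fold differences were 0.33 ± 0.49 and 0.25 ± 1.09 (edgeR, adjusted p = 1.00 for both), and that of Timp3 became -3.39 without silica_DMSO 2 and 1.21 without silica_DMSO 5. Timp3 has the longest model of the 10 genes (4722 bases). The lungs poor in long genes held 41.0 to 814 normalised CPM of it and the others 693 to 1281. Timp1 and Timp3 lie within introns of synapsin genes, and no source used here says whether the counting used strand.

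Over the 10 genes the median log2 fold difference of silica against control was 1.32, with 1.51 for the 7 MMP genes and -0.65 for the 3 TIMP genes, beside -0.030 for all genes fitted. For silica_DMSO against DMSO the median was 0.54 (0.69 for MMP and 0.33 for TIMP genes), beside 0.048 for all genes.

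Adding DMSO after silica left no detectable difference in any of the 10 genes. For silica_DMSO against silica (2 and 3 libraries) all adjusted p-values in edgeR's test were 0.997, and 0% of 17630 genes passed. Mmp12 was 110 and 253 in silica_DMSO and 193 to 254 normalised CPM in silica lungs, overlapping, with a log2 fold difference of -0.29 ± 0.45 (SE). Mmp19 was the 1 gene whose groups did not overlap, at 23.5 and 40.9 against 47.7 to 139, a pattern of 3.93% of genes. Its difference was -1.35 ± 0.49 (unadjusted p = 0.0175, under 0.05 as for 1.94% of genes). Mmp14 and Mmp2 stood at -1.63 ± 0.93 and -1.13 ± 0.79, and at -4.33 and -3.52 without silica_DMSO 2. Mmp8 (-0.82 ± 0.68), Mmp9 (-0.65 ± 0.73), Mmp13 (0.43 ± 0.61), Timp1 (0.54 ± 0.93), Timp2 (0.065 ± 0.49) and Timp3 (-0.12 ± 1.10) did not pass either. For 5 of the 10 genes the sign changed when silica_DMSO 2 or 5 was left out, which leaves 1 library in that group. The difference of Mmp12 was 0.17 without silica_DMSO 2. Without silica_DMSO 2 and without silica_DMSO 5, respectively, the difference was -0.77 and 1.08 for Mmp13, 1.24 and -0.93 for Timp1, -0.45 and 0.43 for Timp2, and -3.76 and 0.81 for Timp3. That of Mmp8 was -1.77 and -0.27, that of Mmp9 was 0.25 without silica 2, and that of Mmp19 was -0.78 without silica 1. The median over the 10 genes was -0.47, beside -0.016 for all genes. With 2 silica_DMSO lung libraries a difference of moderate size could be missed, and detection in this comparison was not simulated.

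DMSO without silica gave no call either. Against control, Mmp12 stood at 6.81 to 16.9 normalised CPM beside 5.23 to 9.36, a log2 fold difference of 0.61 ± 0.38 (SE; edgeR, adjusted p = 0.513). Timp2 was 154 to 445 against 453 to 644, wholly lower as were 3.81% of genes, and differed by -0.91 ± 0.42 (adjusted p = 0.513). Timp3 was 68.9 to 843 against 814 to 1281 and differed by -1.32 ± 0.95 (adjusted p = 0.539). Without DMSO 6 the differences of Timp2 and Timp3 were -1.46 and -2.38, without DMSO 4 -0.61 and -0.81, and that of Mmp12 was 0.31 without DMSO 1. The other 7 genes lay between -0.61 (Mmp14) and 0.24 (Timp1). No member had an unadjusted p under 0.05, as 8.62% of genes did, and 0% passed after adjustment. Limma-voom with quality weights called Mmp12, Timp2 and Timp3 here, where it called 48.1% of all genes.

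Whether the difference with silica depended on DMSO was tested as an interaction. None of the 10 genes passed (edgeR, adjusted p = 1.00 for each), nor did any gene (0%). The interaction was -0.90 ± 0.59 for Mmp12, -0.96 ± 0.61 for Mmp19, 0.78 ± 0.83 for Mmp13 and 0.97 ± 0.64 for Timp2 on the log2 scale. None of the 10 genes had an unadjusted p under 0.05, against 2.75% of all genes. With the long-gene share as a covariate 3 had (Mmp2, Mmp19 and Timp2), against 9.67% of genes, and none passed after adjustment. Without silica_DMSO 2 the interaction was -0.45 for Mmp12, -0.44 for Mmp13 and 0.46 for Timp2, and without silica 1 it was -0.39 for Mmp19.

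The balance of the 2 gene groups was compared as summed TPM. The 7 MMP genes summed to 28.1 to 100.2 TPM in controls, 15.3 to 45.4 in DMSO lungs, 117 to 576 in silica and 36.5 and 203 in silica_DMSO lungs. The 3 TIMP genes summed to 294 to 626, 35.9 to 324, 126 to 374, and 58.4 and 399. The MMP to TIMP ratio was 0.0955 to 0.160 in controls, 0.140 to 0.427 in DMSO lungs, 0.933 to 1.54 in silica and 0.507 and 0.626 in silica_DMSO lungs. The 5 silica-given lungs lay above the 7 others, and no share over other genes stands beside that order. Among lungs without silica DMSO 1 (0.399) and DMSO 4 (0.427), both poor in long genes, were highest. Control 1, also poor in long genes, was lowest (0.0955). Thymus-like silica_DMSO 4 and 6 and DMSO 7 stood at 0.866, 0.910 and 0.297. Mmp12 made 43.7% to 79.4% of MMP TPM in silica-given lungs and 5.63% to 16.9% in the others. In silica_DMSO 5 it made 29.0 of 36.5 MMP TPM, so the ratio there rests on Mmp12. The ratio is made from transcripts and says nothing of enzyme activity.

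**Figure D5:**
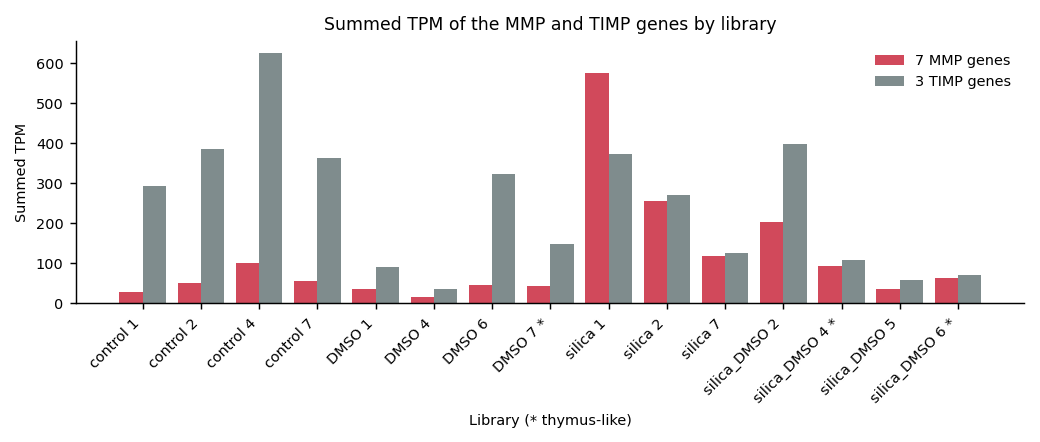
Summed TPM of the 7 MMP genes (red) and the 3 TIMP genes (grey) as bars for each of the 15 libraries, thymus-like libraries starred. TIMP bars exceed MMP bars in every library except silica 1 (576 MMP against 374 TIMP).

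The thymus-like libraries lacked the Mmp12 level of silica lungs. Silica_DMSO 4 and 6 held 8.29 and 3.53 normalised CPM of Mmp12 and DMSO 7 held 2.96. Mmp19 was 3.68, 1.49 and 5.53 and Mmp13 1.38, 0.697 and 0.811 in the same order. Mmp14 (57.6, 38.9 and 27.5) and Mmp9 (27.6, 18.7 and 10.2) were within the lung range. Timp2 (123, 101 and 162) lay below or near the lowest lung value, as 162 exceeds the 154 of DMSO 4. With all 15 libraries in the fit, the Mmp12 difference of silica_DMSO against DMSO was 3.26 ± 1.00 (edgeR, adjusted p = 0.998).

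Other genes of the pathway came from lists written with earlier results known, and edgeR's main test called 0 of their genes in every comparison. With the long-gene share as a covariate, silica against control called Ctsk (2.82 ± 0.29), Spp1 (2.80 ± 0.45) and Lcn2 of the lists below, where 0.272% of all genes were called, and nothing is read from these calls. Of 18 further family members (16 MMP genes, Timp4 and Reck, a membrane-anchored MMP inhibitor), 11 were fitted. The median difference of silica against control was -0.19, and 3 of the 11 were positive. Mmp25, a neutrophil MMP, had the smallest p there, with 7.50, 7.04 and 3.79 normalised CPM in silica and 1.23 to 5.22 in control lungs (1.08 ± 0.51 on the log2 scale). Reck differed by -0.96 ± 0.52. Timp4 had the smallest p in silica_DMSO against DMSO, at -1.38 ± 0.94 (adjusted p = 1.00), or 0.19 without DMSO 4.

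The lists of other proteases and of substrates were read in the same way. Of 7 cathepsins and neutrophil proteases fitted, 6 were higher in silica than control (median 1.18). Ctsk, the collagen-cutting cathepsin K, stood at 3.07 ± 0.55 and, in silica_DMSO against DMSO, at 1.77 ± 0.62, or 0.89 without silica_DMSO 5. Of 9 plasminogen system genes, 4 were higher (median -0.014), with the urokinase gene Plau at 1.69 ± 0.39 and 1.48 ± 0.47 in the 2 comparisons. Of 20 ADAM and ADAMTS genes, 10 were higher (median 0.013), and Adam33 had the smallest p at -1.88 ± 0.70, or -1.13 without control 1. Adamts15 had the smallest p of that list in silica_DMSO against DMSO, at 1.41 ± 0.55. All 10 genes of substrates and surface partners were positive (median 0.87), with Spp1, the MMP substrate osteopontin, at 2.80 ± 0.49 and 2.61 ± 0.58, the latter 1.55 without silica_DMSO 5. Of 8 other protease inhibitors 7 were positive (median 0.99), with A2m, the broad inhibitor alpha-2-macroglobulin, at 3.05 ± 1.13. A2m held 3.99 normalised CPM in silica 1 but 0.313 and 0.312 in silica 2 and 7, beside 0.0892 to 0.235 in controls, so its difference rests on silica 1. Cstb, a cathepsin inhibitor, had the smallest p of that list in silica_DMSO against DMSO, at 1.22 ± 0.81, which was -1.03 without silica_DMSO 5, 0.81 without DMSO 6, 2.18 without DMSO 4 and 2.05 without silica_DMSO 2.

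The genes of most similar pattern were found by the root mean square difference between centred log2 CPM profiles over the 12 lung libraries, in log2 units. For Mmp12 these were Gpnmb (0.75), Ear6 (0.84), Il1rn (0.99), Spp1 (1.01) and Lhfpl2 (1.03). For Mmp19 they began with Csf2rb2 (0.34) and Cd33 (0.38), and for Mmp13 with Nr4a3 (0.56) and Mefv (0.60). Mmp14 was nearest to Eln (0.34), the elastin gene, and to Mmp2 (0.43), and Mmp2 to Col15a1 (0.31), with Col1a1 at 0.36. Mmp8 was nearest to Mmp25 (0.28), and Mmp9 to Csf3r (0.28), the neutrophil growth factor receptor, which stood at 0.39 from Mmp8. Timp1 was nearest to Fcna (0.47), Timp2 to Cdr2l (0.093) and Timp3 to Tbx5 (0.24). Each of the 10 genes thus had a different nearest gene. Some genes were near more than 1 member, such as Csf3r for Mmp8 and Mmp9 and Col1a1 for Mmp14 and Mmp2. These distances are descriptions over libraries that share the silica difference and the long-gene share.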

How the data were processed

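Per the labels, lung RNA of 15 libraries in 4 groups was sequenced. The deposited count table holds expected counts of the authors (7.52% to 10.0% of a library's values are fractional), and the deposited second table holds TPM made by the authors. Gene length in bases is an other value deposited by the authors. The authors' group means, 8 columns, were not used. Bowtie 0.12.2 and mm8 appear in the submitters' processing notes; no source used here names the counting program. Neither CPM nor TPM removes the differing share of long genes.

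Expected counts were rounded, filtered with filterByExpr (smallest count 10, smallest total 15) and scaled by TMM. Normalised CPM uses TMM factors over 15 libraries. Differences were tested with edgeR 4.0.16 (robust quasi-likelihood F test, 4 group means, 12 libraries, limma 3.58.1, R 4.3.3) and adjusted by Benjamini and Hochberg over 17630 genes, called under 0.05. The biological coefficient of variation was 0.520. SE is the log2 fold over the root of F. Motifs and figures used Python 3.11.15, pandas 2.3.3 and matplotlib 3.10.9. Alternatives were all 15 libraries, the compared groups only, DESeq2 1.42.0 (its size factors and its test), limma-voom, limma on log2(TPM + 1) and log2(TPM + 0.1), no filter, the long-gene share, a replicate block and leaving out each library. On simulated data the test called 62% of 4-fold and 98% of 16-fold changes for silica against control, and 30% and 90% for silica_DMSO against DMSO. Each fold was given to 50 of 17630 genes, drawn from those with a mean over 5 CPM, so these shares do not cover genes of low counts. The simulated libraries did not differ in long-gene share. Members and lists were chosen with earlier results of these data known. Named are all 10 members, in each pathway list and comparison the gene of smallest p (those outside silica against control and silica_DMSO against DMSO, none called by the main test, are not printed) and any gene called, and for each member up to 5 genes of most similar profile (mean of at least 1 CPM, pseudocount 0.5); Reck, Mmp3, Mmp27 and the marker genes are named beyond that, after their values were seen.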

Additional observations from a re-analysis of the deposited data

Results flagged for a closer look

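Sets of values were 10 genes on 2 scales in the 3 groups of 4 libraries, thymus-like ones included. In 10 of 60 sets, 1 library stood far from the other 3. Chance alone marks about 1 in 20 independent sets, but these sets share genes and libraries. The DMSO and silica_DMSO groups also mix lung with thymus-like libraries, so the 2 rates cannot be compared. In normalised CPM, Mmp9 was 26.2 in control 4 against 6.48 to 9.80 in the other controls, and on the TPM scale 14.7 against 2.83 to 4.68. Mmp19 was 10.5 normalised CPM in control 1 against 19.0 to 19.3. Timp1 was 19.3 in DMSO 4 against 1.62 to 4.45, and 38.0 in silica_DMSO 5 against 2.46 to 8.13. Timp3 was 957 normalised CPM in silica_DMSO 2 against 41.0 to 81.7, and 237 TPM against 1.92 to 24.1. In TPM silica_DMSO 2 also stood above the rest of its group for Mmp8 (4.35 against 0.1 to 0.36), Mmp13 (5.77 against 0.31 to 0.76) and Mmp19 (15.2 against 0.7 to 1.56).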

How the results depend on the processing

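Silica against control called 1 of the 10 genes, 0 with all 15 libraries and 0 on log2(TPM + 1) or log2(TPM + 0.1), 2 with no filter and 2 with the long-gene share, 3 with DESeq2's test and 6 with limma-voom, and 1 whichever library was left out. Silica_DMSO against DMSO called 0, but 2 with DESeq2, 1 with no filter, 1 with the long-gene share and 0 to 1 leaving out a library (1 without silica_DMSO 2, where that group holds 1 library whose spread is assumed like that of the other groups). DMSO against control called 0, and 3 with limma-voom. Silica_DMSO against silica and the interaction called 0 under every alternative run. For silica against control none of 220 alternative values changed sign. For silica_DMSO against DMSO 21 of 220 did, for silica_DMSO against silica 23, for DMSO against control 29, and for the interaction 16 of 210; the cause was not tested. The 2 silica_DMSO and 3 DMSO lung libraries limit what could be called.

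The 8 pairs of libraries with equal replicate number had correlations of -0.523 to 0.407 (median 0.010) in their deviations. The 45 pairs of unequal number had -0.690 to 0.690 (median -0.0086). So few pairs cannot decide whether the numbers pair the libraries. With the number as a replicate block 0 of the 10 genes were called in silica against control (Mmp12 at 4.82) and Mmp12 stood at 2.76 (adjusted p = 0.781) in silica_DMSO against DMSO. The block changed no other count of genes called. Members with an unadjusted p under 0.05 went from 0 to 3 with it in DMSO against control (20.3% of all genes) and from 0 to 3 in the interaction (8.50%), and from 1 to 0 in silica_DMSO against silica (0.318%). With the long-gene share they were 2 in DMSO against control (7.36%).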
